A study of Mus musculus with 7 samples.

Results

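The Toll-like receptors, their co-receptor Cd14 and the inflammasome sensor Nlrp3 were followed in mouse mammary gland across wild-type and progesterone receptor A (PRA) transgenic animals. Every non-control probe that the scanner files name Tlr1, Tlr2, Tlr3, Tlr4, Tlr5, Tlr7, Tlr8, Tlr9, Cd14 or Nlrp3 was taken, which gave 21 of the 56605 probes on the array, for 10 genes. The genes were chosen by their measured log2 ratios in the same genotype comparison on these arrays, among other results known, so their differences between genotypes are given as a description. How many passed the limits of the fit over all probes is stated once, beside the share of all probes, and is no test of these genes. The study asked how expression in the gland differs when PRA predominates over the other form of the receptor.

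Total RNA of 3 wild-type and 4 PRA transgenic glands was labeled with Cy5 and hybridized against Universal Mouse Reference RNA, labeled with Cy3 and the same pool throughout, with 1 animal per array. All animals were nulliparous adult FVB mice of 20 to 25 weeks at diestrus, and each gave a single abdominal gland from which lymph nodes had been cut out. The transgenics were bigenic: a GAL-4 gene driven by the cytomegalovirus promoter switched on a UAS-PR-A gene, so the extra PRA is not tied by its promoter to mammary epithelium. The labels call the transgenic glands preneoplastic. Each value below is the log2 ratio of processed Cy5 to processed Cy3, or where stated the log2 Cy5 alone less the 75th percentile of its array ("scaled Cy5"), since unscaled Cy5 was lower in PRA transgenics by a median of -0.20 over all kept probes. Ratios of different probes are not compared as levels, because each depends on its own content in the reference.

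A probe was kept when 1 genotype or both had Cy5 well above background on all of their arrays. This held for 34284 probes, among them 17 of the 21 members, and each of the 10 genes had at least 1 kept probe. Between 62.7% and 66.2% of all probes were well above background in Cy5 on wild-type arrays and between 56.6% and 60.2% on PRA transgenic arrays, and in the Cy3 reference between 53.2% and 54.0% and between 47.2% and 50.6%. Wild-type arrays lay in row 1 and PRA transgenic arrays in row 2 of 1 slide, so the effects of row and genotype cannot be told apart. All 6 luminal and all 5 basal epithelial markers were kept. So were all 12 macrophage and all 7 T cell markers, so being kept does not check the labelled tissue. The number of arrays limits the precision, and in whole glands fewer cells of a type and less RNA per cell cannot be told apart.

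Toll-like receptors are membrane proteins that recognize conserved microbial products and some products of damaged cells. Tlr1, Tlr2, Tlr4 and Tlr5 sit at the cell surface and bind lipoproteins, lipopolysaccharide or flagellin, while Tlr3, Tlr7, Tlr8 and Tlr9 sit in endosomes and bind nucleic acids. Signals pass through the adaptors Myd88 or Ticam1 to NF-kappa-B and interferon regulatory factors. Nlrp3 is a cytoplasmic sensor that assembles with Pycard and Casp1 into an inflammasome, which matures interleukin 1 beta and interleukin 18. In the mammary gland these genes are best known from macrophages and other leukocytes, and some are also expressed in epithelium and fat.

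Over the 17 kept probes the ratio was higher in PRA transgenics for 7 and lower for 10, where 54.2% of all kept probes were higher, with a median difference of -0.19 on the log2 scale against 0.02 over all kept probes. In scaled Cy5, 6 were higher and 11 lower, where 50.5% of all kept probes were higher. The 2 measures had opposite signs for 3 member probes (19.1% of all kept probes). At an unadjusted limma P under 0.05 with a 1.5-fold change, the wider limit of the study, 3 member probes passed, where 4.52% of all kept probes did: 1 probe each of Tlr4 and Nlrp3 were higher (1.94% of all kept probes) and 1 probe of Tlr1 was lower (2.58%). No member had a Benjamini-Hochberg adjusted p under 0.05, which 4 of all kept probes had (0.0117%), and 4 members had an unadjusted limma P under 0.05, which 9.02% of all kept probes had. The genotypes did not overlap with PRA higher for 2 member probes (5.42% of all kept probes) and with PRA lower for 3 (4.53%), and in scaled Cy5 for 2 (4.94%) and 1 (4.73%). Because the genes were chosen with this comparison known, nothing is read from these counts.

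**Figure D1:**
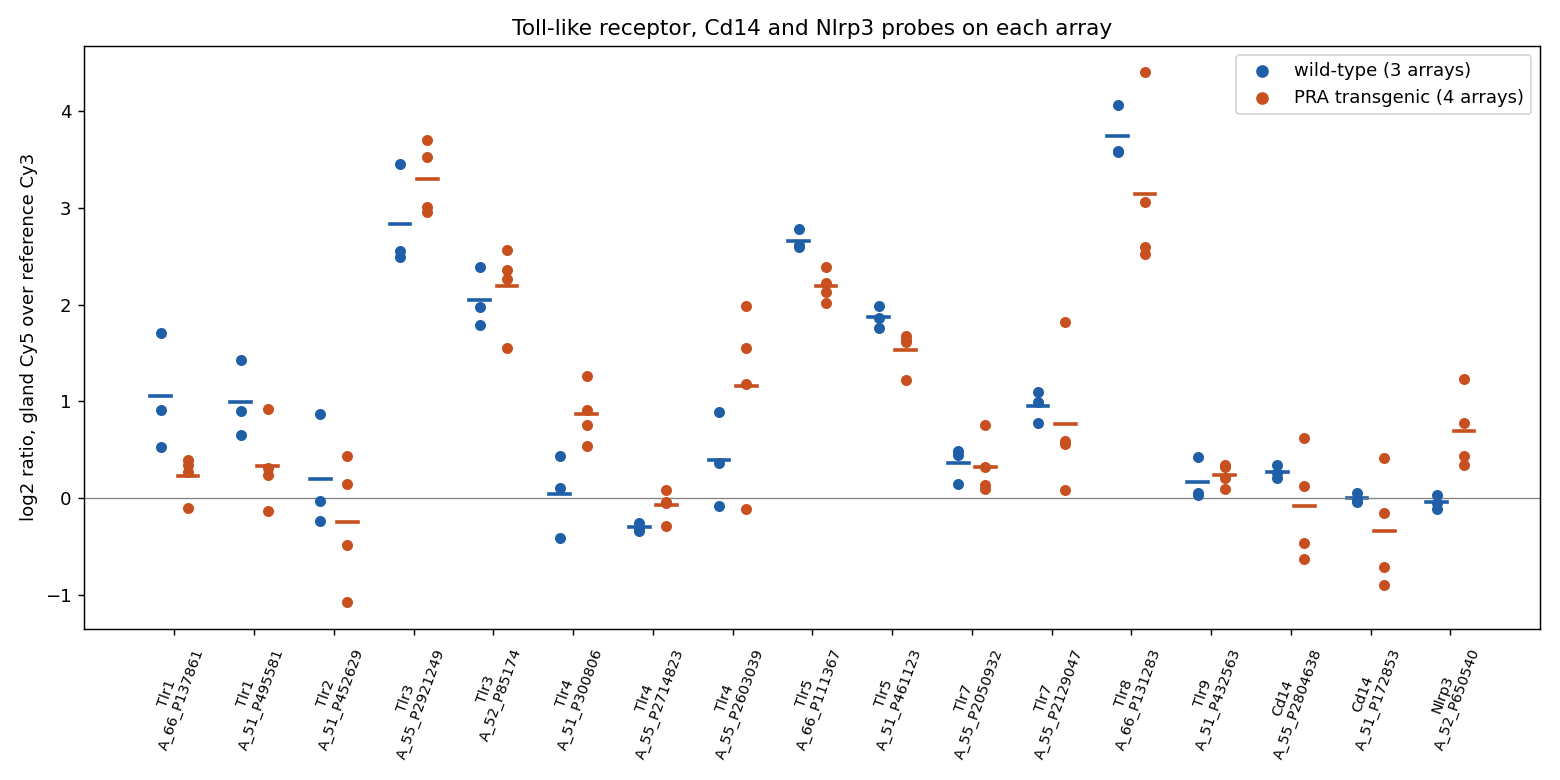
Log2 ratio of gland Cy5 to reference Cy3 (vertical axis) for the 17 kept probes (horizontal axis), with 1 point per array and a bar at each genotype's mean. The 4 PRA transgenic points lie above the 3 wild-type points for the brightest Tlr4 probe and for Nlrp3 and below them for both Tlr5 probes and the brightest Tlr1 probe, and the other 12 probes overlap.

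Tlr4, the receptor that recognizes bacterial lipopolysaccharide, was represented by 3 probes, all kept and all higher on average in PRA transgenics. The probe nearest the start of its transcript (A_55_P2603039, base 359 of NM_021297) is printed as a DNA strand of 60 bases, because it and the brightest probe read the same transcript and gave different spreads.

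Tlr4 A_55_P2603039, mm9 chr4:66500344-66500403, plus strand: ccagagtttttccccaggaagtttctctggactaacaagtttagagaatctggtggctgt

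The brightest Tlr4 probe (A_51_P300806, base 3739 of the same transcript) had log2 ratios of 0.44, 0.10 and -0.41 in wild-type replicates 1 to 3 and of 0.92, 0.54, 0.76 and 1.26 in PRA transgenic replicates 1 to 4. Every PRA transgenic array was above every wild-type array, and PRA transgenic replicate 4 was the highest. The difference was 0.83 (standard error 0.25, 3 against 4 arrays), or 1.77-fold, and it was between 0.60 and 1.02 when any 1 array was left out, with 0.69 without PRA transgenic replicate 4. Scaled Cy5 of this probe was 0.69 higher (standard error 0.24), again without overlap, and the scaled Cy3 reference was -0.13 different, well above background on all 7 arrays.

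The probe printed above gave a Tlr4 difference of similar size but with far more spread. Its log2 ratios were 0.37, 0.89 and -0.08 in wild-type and 1.99, -0.11, 1.18 and 1.55 in PRA transgenics, so that PRA transgenic replicate 2 was the lowest of all arrays and the genotypes overlapped. The difference was 0.76 (standard error 0.50), with scaled Cy5 0.49 higher (standard error 0.39), and after normexp background correction and loess it was 0.04. Here the reference was well above background on 1 array.

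The third Tlr4 probe (A_55_P2714823, designed on the transcript ENSMUST00000107365) had log2 ratios of -0.31, -0.25 and -0.33 in wild-type and 0.08, -0.29, -0.04 and -0.04 in PRA transgenics, a difference of 0.23 (standard error 0.13). Only PRA transgenic replicate 2 lay within the wild-type range. This probe lies 87.416 kb past the brightest one on mm9, whereas the RefSeq Tlr4 gene spans 19.031 kb in GRCm38.p6. Whether it reads Tlr4 RNA is therefore uncertain. It ordered 18 of the 21 pairs of arrays like the brightest probe, and the probe at base 359 did so for 16.

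Nlrp3 had a single probe, which is shown because its sequence is all that the array holds on this gene (A_52_P650540, base 2898 of NM_145827).

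Nlrp3 A_52_P650540, mm9 chr11:59378554-59378613, plus strand: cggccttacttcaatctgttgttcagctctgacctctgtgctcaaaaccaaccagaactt

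The Nlrp3 log2 ratios were -0.11, -0.05 and 0.04 in wild-type and 0.44, 0.35, 0.77 and 1.24 in PRA transgenics. All 4 PRA transgenic arrays were above all wild-type arrays, by a mean of 0.74 (standard error 0.22), or 1.67-fold, and with any 1 array left out the difference was between 0.56 and 0.86. The lowest value came without PRA transgenic replicate 4, the array with the highest Nlrp3 ratio, and was below 1.5-fold, so that the probe no longer passed the limit above. More of this difference lay in the reference channel than in the gland: scaled Cy5 was 0.29 higher (standard error 0.14) and scaled Cy3 was -0.45 different.

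In scaled Cy5 Nlrp3 stood at -4.02, -4.04 and -4.35 in wild-type and at -3.83, -3.88, -3.97 and -3.72 in PRA transgenics, which still did not overlap. Without scaling the log2 Cy5 was 4.27, 4.42 and 3.82 in wild-type and 4.30, 4.17, 4.10 and 4.44 in PRA transgenics, with overlap and a difference of 0.08. The lowest log2 Cy5 signals well above background anywhere on an array were 3.13 to 3.31 in wild-type and 3.60 to 3.99 in PRA transgenics, so the probe was close to the detection limit. It was well above background on 3 of 3 wild-type and 3 of 4 PRA transgenic arrays in Cy5 and on no array in Cy3, and after normexp and loess the difference was 0.28.

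The reference is the same RNA on every array, yet for dim probes its signal scattered widely. The values in this paragraph are of unscaled Cy3, which differed between genotypes by a median of -0.22 over all kept probes. Among the 3652 kept probes whose Cy3 was well above background on no array, the difference had quartiles of -0.41 and 0.34. Nlrp3, which is 1 of these, was at -0.66. Among the 25192 kept probes above background on all 7 arrays, the quartiles were -0.27 and -0.17. The brightest Tlr4 probe, which is 1 of these, was at -0.34. Of the 17 kept members 10 were of the latter kind and 4 of the former: both Tlr3 probes, the kept Tlr8 probe and Nlrp3. The part of the reference in their ratios was not tested.

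**Figure D2:**
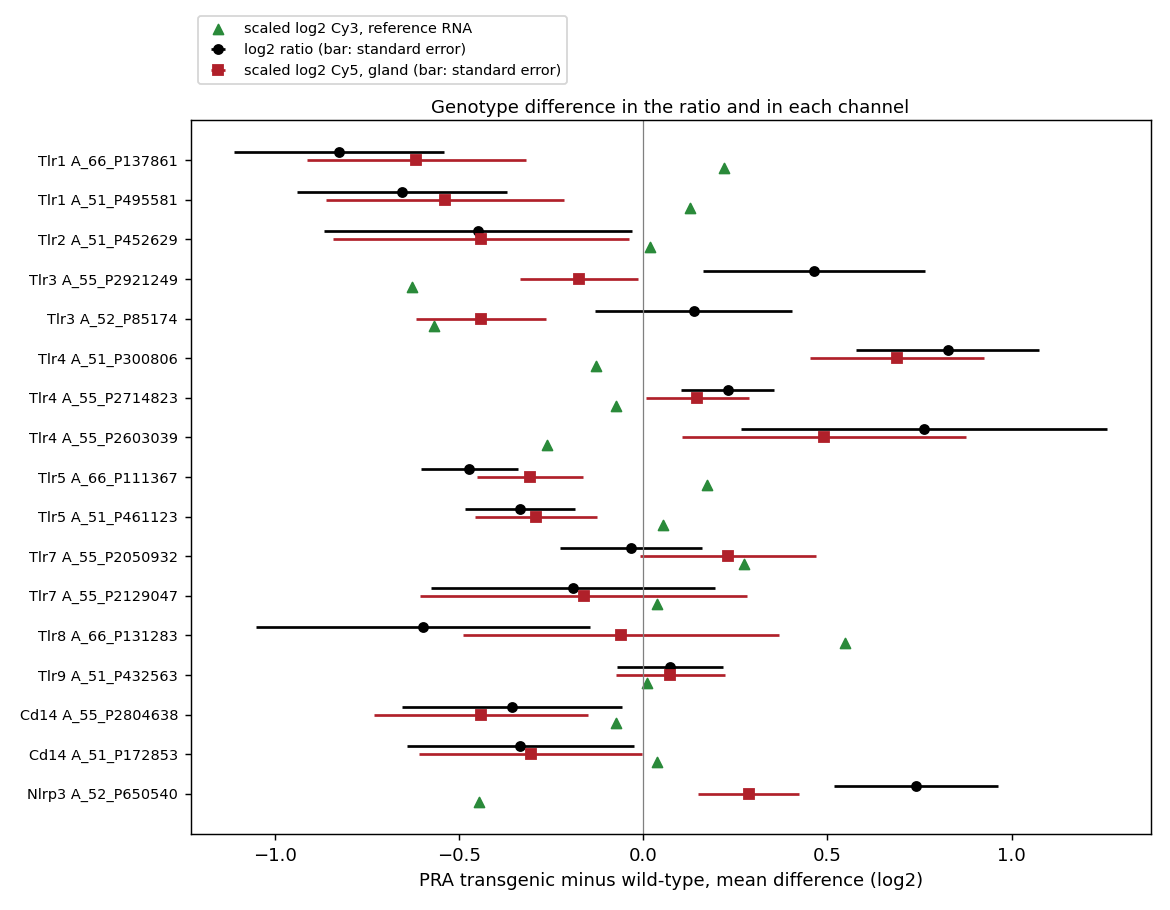
Difference between PRA transgenic and wild-type means (horizontal axis, log2) for each kept probe (vertical axis), in the ratio, in scaled Cy5 and in scaled Cy3, with bars of 1 standard error for the first 2. For the brightest Tlr4 probe the ratio (0.83) and scaled Cy5 (0.69) lie close together, whereas for Nlrp3 (0.74 and 0.29), Tlr8 (-0.60 and -0.06) and both Tlr3 probes they lie apart. In these probes Cy3 has the opposite sign to the ratio. For both Tlr3 probes scaled Cy5 and scaled Cy3 are both lower in PRA transgenics.

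Tlr1 and Tlr2 form the surface heterodimer that binds triacylated lipoproteins. A probe of each is given, the only one of Tlr2 and the dimmer one of Tlr1, since the Tlr1 probes read nearby sequence and ordered the glands differently.

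Tlr1 A_51_P495581, mm9 chr5:65316115-65316174, minus strand: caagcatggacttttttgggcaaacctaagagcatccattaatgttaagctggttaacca
Tlr2 A_51_P452629, mm9 chr3:83640344-83640403, minus strand: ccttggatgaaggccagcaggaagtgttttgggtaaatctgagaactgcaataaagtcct

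The brightest Tlr1 probe (A_66_P137861) had log2 ratios of 1.71, 0.53 and 0.92 in wild-type and -0.10, 0.34, 0.39 and 0.27 in PRA transgenics. All PRA transgenic arrays were below all wild-type arrays, with wild-type replicate 1 far above the rest. The difference was -0.83 (standard error 0.28), a 1.77-fold lower ratio, with -0.62 in scaled Cy5. Without wild-type replicate 1 it was -0.50 and without PRA transgenic replicate 1 -0.72, and in neither case did the probe pass the limit above. The printed probe gave 1.43, 0.65 and 0.90 against 0.93, 0.24, -0.13 and 0.31, a difference of -0.65 (standard error 0.29) with PRA transgenic replicate 1 inside the wild-type range. The 2 probes gave different values above all in PRA transgenic replicates 1 and 3. They ordered 13 of the 21 pairs of arrays alike and 3 of the 9 pairs within a genotype, and their mm9 positions span 181 bases.

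Tlr2 ratios were -0.02, -0.23 and 0.87 in wild-type and -1.07, 0.43, -0.48 and 0.15 in PRA transgenics. The genotypes overlapped, and the difference of -0.45 (standard error 0.42) was near its error. Single arrays decided its size: it was -0.12 without wild-type replicate 3, -0.17 without PRA transgenic replicate 1 and -0.67 without PRA transgenic replicate 2.

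Tlr5, the receptor for flagellin, was lower in PRA transgenics by both of its probes. The brightest (A_66_P111367) had 2.62, 2.78 and 2.59 in wild-type and 2.38, 2.01, 2.13 and 2.22 in PRA transgenics, and the other (A_51_P461123) had 1.98, 1.76 and 1.87 against 1.22, 1.68, 1.61 and 1.64. Neither pair of genotypes overlapped. The differences were -0.47 (standard error 0.13) and -0.33 (standard error 0.15), below 1.5-fold, and in scaled Cy5 they were -0.31 and -0.29 with overlap. For the brightest probe the difference was between -0.54 and -0.41 with any 1 array left out. PRA transgenic replicate 1 stood apart at the second probe, and the 2 probes ordered 14 of 21 pairs of arrays alike but 2 of 9 within a genotype. The dendritic cell markers described below, lower in PRA transgenics by 0.73 in the mean, ordered 17 of 21 pairs like the brightest Tlr5 probe and 5 of 9 within a genotype, and their part in the Tlr5 difference was not tested.

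Cd14, which hands lipopolysaccharide to Tlr4, did not follow it. Its brightest probe (A_55_P2804638) had log2 ratios of 0.21, 0.34 and 0.27 in wild-type and -0.62, 0.13, -0.46 and 0.62 in PRA transgenics. PRA transgenic replicate 4 was the highest of all arrays and the remaining 3 were below every wild-type array, so the transgenics lay on both sides of a narrow wild-type range. The difference was -0.36 (standard error 0.30). It was -0.59 without PRA transgenic replicate 4, -0.18 without replicate 1 and -0.23 without replicate 3. The second probe (A_51_P172853) gave -0.33 (standard error 0.31) and ordered all 21 pairs of arrays as the first did.

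Among the endosomal receptors the genotypes overlapped for every kept probe. Tlr3, which binds double-stranded RNA, had 2.56, 3.45 and 2.49 in wild-type and 3.52, 3.70, 3.00 and 2.96 in PRA transgenics at its brightest probe (A_55_P2921249), a difference of 0.46 (standard error 0.30). Without wild-type replicate 2 it was 0.77 and without wild-type replicate 3 it was 0.29. Its sign turned to -0.17 in scaled Cy5 and to -0.04 after normexp and loess. The other Tlr3 probe (A_52_P85174) differed by 0.14 in the ratio (standard error 0.27) and by -0.44 in scaled Cy5 (standard error 0.18). No direction is therefore given for Tlr3.

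Tlr7 and Tlr8, neighbours in function that bind single-stranded RNA, had their highest ratio of all arrays in PRA transgenic replicate 4. The brightest Tlr7 probe (A_55_P2050932) had 0.48, 0.45 and 0.15 in wild-type and 0.33, 0.14, 0.10 and 0.76 in PRA transgenics, a difference of -0.03 (standard error 0.19) that was 0.23 in scaled Cy5. The second (A_55_P2129047) had 1.10, 0.99 and 0.78 against 0.09, 0.56, 0.59 and 1.82, a difference of -0.19 (standard error 0.38).

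The kept Tlr8 probe (A_66_P131283) had 3.57, 4.06 and 3.59 in wild-type and 2.60, 3.06, 2.52 and 4.39 in PRA transgenics. Without PRA transgenic replicate 4 the difference of -0.60 (standard error 0.45) became -1.02, and without replicate 3 it was -0.39. In scaled Cy5 it was -0.06 and after normexp and loess 0.13, so Tlr8 has no settled direction either. The 4 probes not kept were 1 of Tlr7 and 3 of Tlr8. The Tlr7 probe (A_55_P2129046) and A_51_P176893 of Tlr8 had no array with Cy5 well above background, A_55_P1996271 was so on 1 wild-type and 2 PRA transgenic arrays, and A_55_P2718309 on 2 wild-type arrays and no PRA transgenic array.

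Tlr9, the receptor for unmethylated CpG DNA, differed little between the genotypes. Its ratios were 0.04, 0.42 and 0.05 in wild-type and 0.32, 0.10, 0.22 and 0.34 in PRA transgenics, a difference of 0.07 (standard error 0.14), with 0.07 in scaled Cy5 and -0.13 in unscaled Cy5. With any 1 array left out it was between 0.0064 and 0.20, the highest without wild-type replicate 2.

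The members did not move as 1 block across animals. Likeness was measured as the number of the 21 pairs of arrays that 2 genes put in the same order, 9 of which lie within a genotype, over the same 7 arrays and reference, and as a description only. Tlr8 and Cd14 ordered 20 of 21 pairs alike (8 of 9 within a genotype), and Tlr7 and Tlr8 17 of 21. Tlr4 and Nlrp3 ordered 17 of 21 alike but 5 of 9 within a genotype. Tlr4 and Cd14, which act in the same receptor complex, ordered 7 of 21 alike.

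Among 146 genes of the pathway and marker lists, those most like Cd14 were the macrophage genes Mpeg1 (21 of 21 pairs) and Lyz2 (20 of 21) and the transcription factor Irf5 (20 of 21). Most like Tlr4 were Lipe and Plin1, a lipase and a coat protein of fat droplets, and the kinase Ripk1, each with 19 of 21 pairs and 7 of 9 within a genotype. For Nlrp3 the closest were Ripk1, the neutrophil granule gene Camp and Plin1, each with 17 of 21 but 5 of 9 within a genotype. Tlr4, Nlrp3, Lipe, Plin1, Ripk1 and Camp each had all 4 PRA transgenic arrays above all wild-type arrays. Between genotypes their pairs were therefore bound to be ordered alike. Within a genotype Tlr7 ordered 8 of 9 pairs like Tlr4, and Tlr5 and Tlr9 each ordered 7 of 9.

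Cell type markers are given beside these results, as the mean log2 ratio over each list. The 12 macrophage markers stood at 2.97, 2.86 and 2.71 in wild-type and 2.63, 2.83, 2.67 and 3.33 in PRA transgenics, 6 genes higher and 6 lower, with no difference to speak of (0.02; exact permutation test, two-sided, with 35 ways to split the arrays, p = 1). PRA transgenic replicate 4 was the highest, as for Cd14, Tlr7 and Tlr8. The list ordered 18 of 21 pairs like Cd14 (7 of 9 within a genotype), 17 like Tlr7 (7 of 9) and 17 like Tlr8 (6 of 9). This likeness was not particular to macrophage markers. Dendritic cell markers ordered 15 of 21 pairs like Cd14 (6 of 9), 16 like Tlr7 (8 of 9) and 16 like Tlr8 (7 of 9). Fibroblast markers, also highest in PRA transgenic replicate 4, ordered 15, 16 and 14 of 21 like these genes. The part of these lists in those 3 genes was not tested.

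All 5 adipocyte markers were higher in PRA transgenics in the ratio, at 5.06, 5.33 and 5.00 against 5.69, 5.11, 5.23 and 5.34 (difference 0.21; exact permutation test, p = 0.257), but in scaled Cy5 the list differed by -0.02, and without PRA transgenic replicate 1 the ratio differed by 0.094. It ordered 17 of 21 pairs like Tlr4 and 7 of 9 within a genotype. This likeness was not particular to the pair. Tlr9, which differed little between genotypes, had the same counts with adipocyte markers. Endothelium markers ordered 15 of 21 pairs like Tlr4, also with 7 of 9 within a genotype. The fatty layer of the lysate had been discarded before RNA extraction, and all 5 adipocyte markers still had a kept probe. The part of the adipocyte markers in the Tlr4 difference was not tested.

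Lymphocyte markers set wild-type replicate 1 apart, where Tlr1 was also highest. The dendritic cell (1.86), neutrophil (1.94) and luminal (2.84) lists were highest on that array as well. The 7 T cell markers were at 1.67 there, at -0.63 and -0.14 in the other wild-type glands and between -0.88 and -0.39 in PRA transgenics, and the 5 kept B cell markers were at 1.58, at -0.86 and -1.08, and between -1.24 and -0.52. Without that array the B cell difference was 0.07, the T cell difference -0.29 and the difference of the brightest Tlr1 probe -0.50. The 6 kept neutrophil markers (1.94, 1.37 and 1.54 against 0.77, 1.20, 1.56 and 1.20) ordered 19 of 21 pairs like Tlr1, the most of the 11 marker lists. In the ratio 3 of these markers were higher and 3 lower, and in scaled Cy5 the list differed by -0.16 (exact permutation test, unadjusted p = 0.686). The marker S100a9 was lowest, at 1.07, on the same PRA transgenic array as the brightest Tlr1 probe, replicate 1. The S100a9 ratio differed by -1.41, unscaled Cy5 by 0.0019 and unscaled Cy3 by 1.41. Its reference was well above background on 1 array. The part of the neutrophil markers in the Tlr1 difference was not tested.

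The 7 kept dendritic cell markers were between 1.23 and 1.86 in wild-type and between 0.58 and 1.17 in PRA transgenics, a difference of -0.73 (exact permutation test, p = 0.0571, and 0.471 after Benjamini-Hochberg adjustment over the 11 lists). Differences were -0.43 for neutrophil, -0.78 for B cell, -0.98 for T cell, -0.15 for luminal, 0.12 for basal, -0.14 for fibroblast, 0.06 for endothelium and -1.22 for skeletal muscle markers, the last with high values in wild-type replicates 1 and 3 and PRA transgenic replicate 4. With 1 array left out the skeletal muscle difference ran from -2.40 (without wild-type replicate 2) to -0.29 (without wild-type replicate 3). The fibroblast difference ran from -0.32 (without wild-type replicate 3) to -0.010 (without wild-type replicate 1), the luminal from -0.34 (without wild-type replicate 2) to -0.018 (without wild-type replicate 1), the basal from 0.047 (without wild-type replicate 2) to 0.22 (without wild-type replicate 3) and the neutrophil from -0.56 (without PRA transgenic replicate 3) to -0.27 (without wild-type replicate 1). Adjusted p-values over the lists ran from 0.471 to 1, and the smallest p that 3 against 4 arrays allow is 0.0286. Of all listed markers Xcr1, Cxcr2, Ngp, Cd79a and Ckm had no kept probe.

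**Figure D3:**
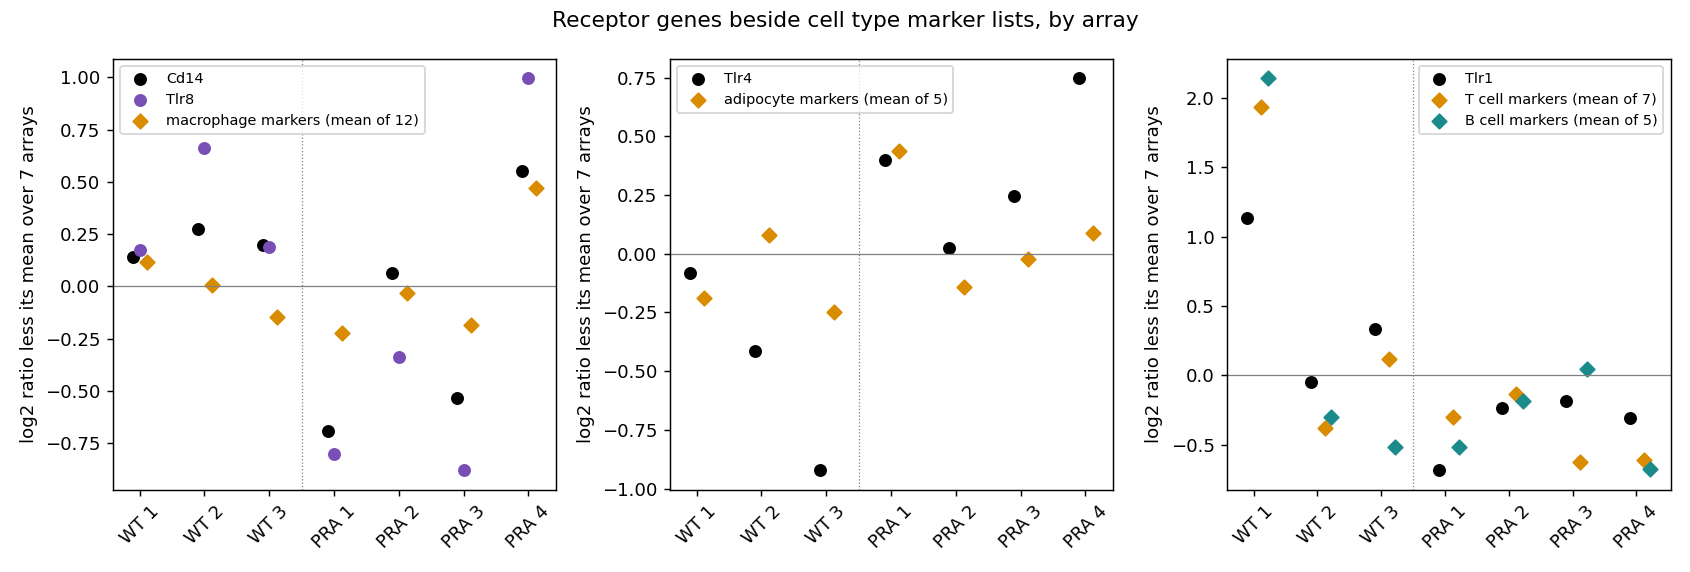
Log2 ratios less their mean over the 7 arrays (vertical axis) for each array (horizontal axis; dotted line between genotypes), with circles for genes and diamonds for marker list means. Cd14, Tlr8 and the macrophage markers are all highest in PRA transgenic replicate 4, Tlr4 and the adipocyte markers share 17 of 21 ordered pairs, and Tlr1 and both lymphocyte lists are highest in wild-type replicate 1. The dendritic cell, neutrophil and luminal lists, which are not drawn, are also highest in wild-type replicate 1. The fibroblast list, also not drawn, is highest in PRA transgenic replicate 4.

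The rest of the pathway was examined in 86 genes on 9 lists, of which 79 had a kept probe and were tested at their brightest one. Of these 27 were higher and 52 lower in PRA transgenics, where 52.7% of all genes were higher, with a median of -0.10 against 0.01 over the brightest probes of all genes. At the limit of P under 0.05 and 1.5-fold none was higher and 4 were lower, where 4.05% of all genes passed (1.51% higher and 2.54% lower), so the share was close to the background. None had a limma adjusted p under 0.05, which 0.00445% of all genes had, while 7 had an unadjusted P under 0.05 (7.95% of all genes). By the methods' t-test 2 genes passed the limit of P under 0.05 and 1.5-fold, as did 2.51% of all genes.

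The 4 genes past that limit were a surface protein, a feedback inhibitor and 2 inflammasome sensors. Nlrc4, which forms the inflammasome that responds to flagellin, had log2 ratios of 3.14, 2.47 and 2.89 in wild-type and 1.08, 1.96, 1.00 and 1.84 in PRA transgenics, without overlap (difference -1.36, standard error 0.30, adjusted p = 0.348, limma). Its Cy3 was well above background on no array and was 0.57 higher in PRA transgenics, and the difference in unscaled Cy5 was -0.80. Aim2, the sensor of cytoplasmic DNA, had -0.47, -0.96 and -1.14 against -1.28, -1.94, -1.64 and -1.15 (difference -0.65, standard error 0.25, adjusted p = 0.507).

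Socs1, which dampens cytokine and Toll-like receptor signals, averaged -0.70 over the wild-type glands (SD 0.26) and -1.33 over the PRA transgenics (SD 0.24), where it lay between -1.54 and -1.05, also without overlap (difference -0.63, standard error 0.19, adjusted p = 0.421). Cd180, a receptor relative that is best known from B cells, had 0.32, -0.17 and -1.18 against -1.16, -1.26, -1.17 and -0.94 (difference -0.79, standard error 0.33, adjusted p = 0.542). Wild-type replicate 3 lay inside the PRA transgenic range.

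In the remaining lists no gene passed. All 3 tested Toll-like receptors outside the members were lower, from Tlr13 (-0.32) to Tlr12 (-0.15). All 4 tested adaptors were slightly higher, from Tirap (0.01) to Ticam1 (0.15). The 16 kinases and ligases were split 8 to 8, from Traf6 (-0.20) to Ripk1 (0.25), and 4 of the 5 transcription factors were lower, from Irf7 (-0.26) to Nfkb1 (0.01).

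Among the inflammasome partners 2 of 9 were higher and 7 lower, from Txnip (-0.64, standard error 0.41), a protein that binds Nlrp3, to Il18 (0.31, standard error 0.39). The 10 tested cytokines and enzymes that these receptors induce had a median of -0.46, the lowest of the 9 lists, with 3 higher and 7 lower. The extremes were Cxcl10 (-1.14, standard error 0.51) and Il12b (0.20, standard error 0.50). In 2 PRA transgenic glands, replicates 3 and 4, Cxcl10 was at -2.91 and -3.20, and in the others at -1.56 and -1.30, within the wild-type range of -1.59 to -0.65.

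Other genes are named for their roles or after their values were seen. The chemokines Ccl2 (-0.58, standard error 0.12), Ccl4 (-0.54, standard error 0.14) and Cxcl1 (-0.41, standard error 0.11) were lower in all 4 PRA transgenics than in all wild-type glands. Of all kept probes 4.53% were likewise lower without overlap. These chemokines changed less than 1.5-fold, and their limma adjusted p-values were 0.342, 0.395 and 0.405. In the same list Ccl3 differed by -0.09 (standard error 0.12) and Tnf by 0.02 (standard error 0.20), both with overlap. Several partners of Tlr4 and Nlrp3 differed by less than their standard error. Ly96, the subunit that binds lipopolysaccharide beside Tlr4, differed by 0.12 (standard error 0.13), Lbp by 0.21 (0.27) and Myd88 by 0.08 (0.11). Pycard differed by -0.25 (0.35), Casp1 by -0.05 (0.14) and Nek7 by -0.12 (0.18). Cd14, Txnip and Cd180, given above, differed by more than theirs, as did the inflammasome partner P2rx7 (-0.47, standard error 0.29). So did the receptor partners Hsp90b1 (-0.24, standard error 0.15), Cnpy3 (0.20, standard error 0.12) and Unc93b1 (-0.33, standard error 0.24). Il1b, which the inflammasome matures, differed by -0.16 (standard error 0.24), with a reference well above background on 1 array.

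**Figure D4:**
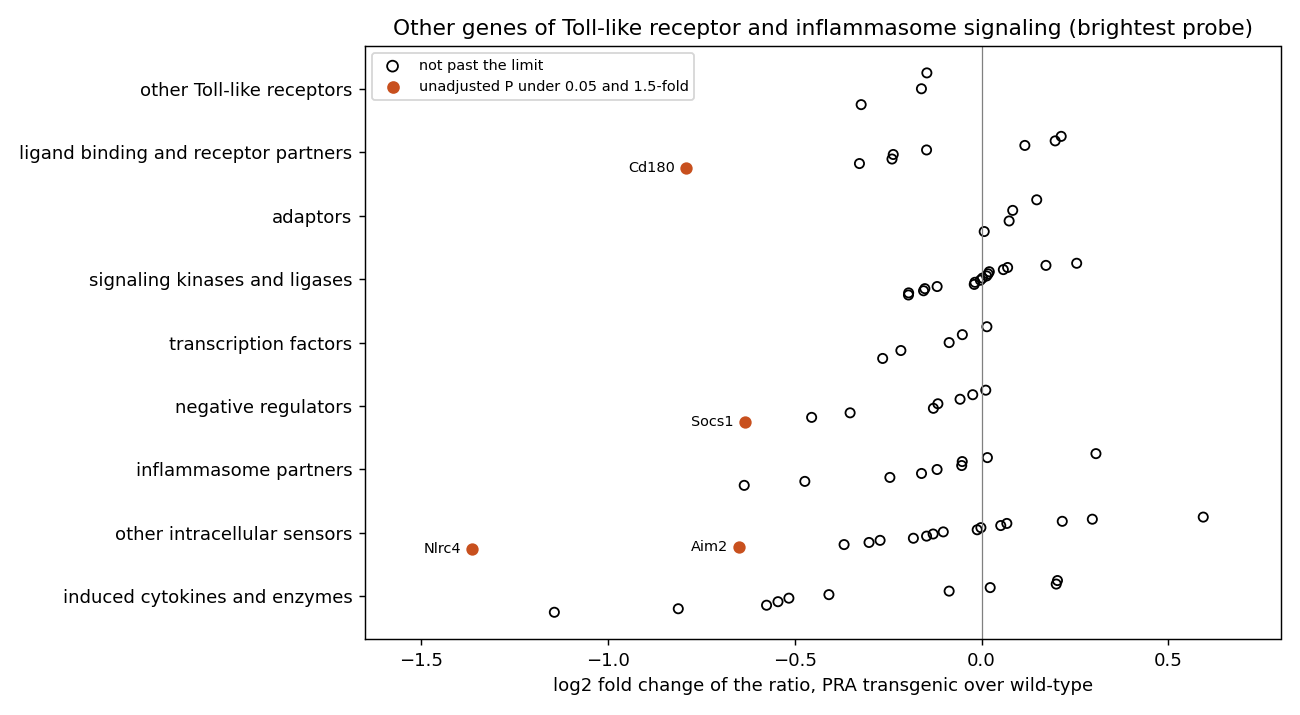
Log2 fold change of the ratio, PRA transgenic over wild-type (horizontal axis), for the 79 tested genes of the 9 pathway lists (vertical axis), with 1 point per gene. The 4 filled points, Nlrc4, Cd180, Aim2 and Socs1, passed P under 0.05 and 1.5-fold, all of them lower.

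The count of 4 pathway genes was unsteady. Without wild-type replicate 1, the gland with high lymphocyte markers, 5 genes passed, 1 of them higher, and of the 4 named Nlrc4 alone remained. Nlrc4 passed with any 1 array left out, and Cd180 passed in 1 of the 7 cases. The count was 1 without wild-type replicate 2 or without PRA transgenic replicate 3, 2 without PRA transgenic replicate 2 and 7 without PRA transgenic replicate 4, and after normexp and loess it was 2, neither of them among the 4.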

How the data were processed

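For each array the authors deposited a file of Agilent Feature Extraction 12.0 (version from the submitters' processing notes), with processed intensity values that the software had background-subtracted and dye-normalized within each array, surrogates standing in for dim signals. A table of log2 ratios, centered by the authors over the arrays, was used as an alternative. Probe positions are those of the files (mm9). RefSeq names of GRCm38.p6 updated symbols outside the members. Processed Cy5 was divided by processed Cy3 and log2 taken, control and outlier spots were left out and spots of a probe were averaged. Kept probes were fitted in R 4.3.3 by limma 3.58.1 (lmFit, then eBayes) without covariate, and P was adjusted by Benjamini-Hochberg over all 34284. Where a gene had several probes, the brightest in Cy5 stood for it. Marker lists were compared by exact permutation in Python 3.11.15. The steps were tested on simulated data. No array had the dyes swapped, so a dye effect is part of every ratio but common to both genotypes.

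The members and the lists were chosen with earlier results of these data known, and Tlr4 and Nlrp3 stand among the genes that the study lists as higher on these arrays. The lists covered other receptors, receptor partners, adaptors, kinases and ligases, transcription factors, negative regulators, inflammasome partners, other sensors and induced cytokines, and markers of 11 cell types. Named are every member probe, pathway genes past P under 0.05 and 1.5-fold, the largest rise and fall of lists in which none passed, and the 3 genes most like Tlr4, Nlrp3 and Cd14. Alternatives were normexp (offset 50) with loess, Cy5 alone with and without scaling to the 75th percentile, the series table, other filters, quantile normalization, array weights, the median over probes, the methods' t-test, the replicate block and each array left out.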

Additional observations from a re-analysis of the deposited data

Results flagged for a closer look

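In 3 of 32 groups of 4 PRA transgenic arrays that were examined, 1 array stood apart from the rest by more than Dixon's limit for 4 values allows, where chance gives about 1.6. For the Tlr5 probe A_51_P461123 the gap of PRA transgenic replicate 1 (log2 ratio 1.22, the others between 1.61 and 1.68) was 0.866 of the group's range. The fibroblast markers set PRA transgenic replicate 4 apart, with a mean log2 ratio of 2.80 against 2.24 to 2.28 (0.934 of the range). The skeletal muscle markers did the same for replicate 4, with 2.33 against -0.81 to -0.63 (0.943 of the range). At their brightest probes replicate 4 was also the array with the highest ratio of Cd14, Tlr7, Tlr8, Tlr4 and Nlrp3, and without it the Tlr4 difference was 0.69 and the Nlrp3 difference 0.56.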

How the results depend on the processing

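At their brightest probes Tlr1, Tlr2, Tlr4, Tlr5, Cd14 and Nlrp3 kept the sign of their difference in every alternative run. The Nlrp3 difference ranged from 0.08 (unscaled Cy5) to 0.86, and the Tlr4 difference from 0.48 (unscaled Cy5) to 1.02. Signs turned for Tlr3, Tlr8 and Tlr9 as given with their values, and for Tlr7, whose differences lay near 0, in 7 alternatives. The count of 4 pathway genes was 2 after normexp and loess, 12 in unscaled Cy5, 2 by the methods' t-test, 7 with the replicate block, and 1 to 7 with 1 array left out. In the other 7 alternatives it was between 3 and 5. The replicate block used only the numbers that both genotypes have, so it left out PRA transgenic replicate 4. Its member differences at the brightest probes equaled those without that array. Replicate numbers did not pair the arrays. Same-numbered arrays had correlations of 0.0997, -0.297 and 0.0362, and 1 of the 3 wild-type arrays was closest to its own number. In unscaled Cy5, which was lower over all probes, the list differences reversed to -0.30 for macrophage, -0.16 for basal, -0.23 for adipocyte and -0.083 for endothelium markers, and T cell markers differed by -1.16 (exact permutation test, p = 0.0286, the smallest possible). In scaled Cy5 T cell markers differed by -0.95 (exact permutation test, p = 0.143), macrophage markers by -0.090 and adipocyte markers by -0.020. These p-values were not adjusted over the lists. With 1 array left out the macrophage difference ran from -0.14 to 0.093, the B cell difference from -1.26 to 0.072 and the endothelium difference from -0.095 to 0.24. The causes were not tested. Signal over background limits the ratios of Tlr3, Tlr8 and Nlrp3, whose reference was well above background on no array.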
